A study of Mus musculus with 28 samples.

Results

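The 10 genes described here encode the lipases that empty the fat droplet of an adipocyte, the proteins that switch the first lipase on and off, and the proteins that coat or enlarge the droplet. They are Pnpla2, Lipe, Mgll, Abhd5, G0s2, Plin1, Plin2, Plin4, Plin5 and Cidec. They were listed by name and found by Ensembl identifier in each of the 5 depot tables, which hold 55891 genes each (29330 for ieWAT). All 10 passed the filter on low values in every table. The tables come from bulk RNA-seq of mouse adipose tissue, in which knockout of Fgf13, a gene of the fibroblast growth factor family, was compared with control. Of 28 libraries, 13 were labelled knockout (genotype Fgf13 KO) and 15 control (genotype WT). The adipose knockout was inducible in the sets named isWAT (subcutaneous white fat, 2 knockout and 3 control libraries) and ieWAT (epididymal white fat, 3 and 3). It was constitutive in the sets named BAT (brown fat, 2 knockout and 3 control libraries) and sWAT (subcutaneous white fat, 3 and 3). Both groups of these 4 sets were obese mice that had eaten a high fat diet for 20 weeks. A further set, eWAT (epididymal white fat, 3 and 3), has no knockout type and no diet in the series text. The sources used here do not name the promoter driving the deletion, the inducing agent, or the sex and age of the mice. The labels do not say whether libraries of the same group are from different animals. A p-value here therefore reflects only the variation among the libraries, part or all of which could be technical.

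Stored fat is released in steps. Adipose triglyceride lipase, encoded by Pnpla2, removes the first fatty acid from triglyceride. Hormone-sensitive lipase, encoded by Lipe, then acts on the diglyceride, and monoglyceride lipase, encoded by Mgll, frees the glycerol. The product of Abhd5, also called CGI-58, activates adipose triglyceride lipase, and the product of G0s2 inhibits it. Perilipin 1 is the main droplet coat of adipocytes. It holds CGI-58 at rest and lets it go when protein kinase A phosphorylates the coat after adrenergic stimulation. Perilipin 2 coats droplets in most cell types, lipid-laden macrophages included. Perilipin 4 coats small droplets in white adipocytes, perilipin 5 is typical of oxidative tissues such as heart and brown fat, and Cidec promotes the growth of droplets toward the single large droplet of a white adipocyte.

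Pnpla2, Lipe and Plin1 lie on mouse chromosome 7 (GENCODE M21 annotation of GRCm38), at 141455198 to 141460743, 25379527 to 25398710 and 79720218 to 79732903. Plin4 and Plin5 are neighbours on the minus strand of chromosome 17, with 1797 bases between them. Cidec and Mgll are on chromosome 6, Plin2 on 4, Abhd5 on 9 and G0s2 on 1. The 250 bases before the RefSeq transcript start (build GRCm38.p6) are printed for the first lipase and the adipocyte coat perilipin 1, whose transcripts were higher together in eWAT, and for perilipin 2, whose transcript was not. They are chr7:141454938-141455187 on the plus strand for Pnpla2, chr7:79732777-79733026 on the minus strand for Plin1 and chr4:86670060-86670309 on the minus strand for Plin2, each given 5′ to 3′ on the strand of its gene. Capitals mark a match on either strand to AGGTCA (the core motif of nuclear receptors), the DR1 element (a direct repeat of that motif), CACGTG (the E-box), GGGCGG (the GC box), CCAAT (bound by the factor NF-Y), TATAAA (the core promoter element) or TTGCNNAA (C/EBP motif).
Pnpla2: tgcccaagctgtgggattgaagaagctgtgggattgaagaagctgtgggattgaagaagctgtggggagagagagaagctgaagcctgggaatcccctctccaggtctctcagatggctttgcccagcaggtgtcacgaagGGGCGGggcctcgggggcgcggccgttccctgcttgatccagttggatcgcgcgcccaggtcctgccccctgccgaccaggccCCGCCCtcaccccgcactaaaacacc
Plin1: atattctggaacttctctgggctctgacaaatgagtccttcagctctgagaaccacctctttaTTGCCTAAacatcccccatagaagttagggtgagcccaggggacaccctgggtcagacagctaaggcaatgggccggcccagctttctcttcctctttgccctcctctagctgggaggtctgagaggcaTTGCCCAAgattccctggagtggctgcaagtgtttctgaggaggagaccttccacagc
Plin2: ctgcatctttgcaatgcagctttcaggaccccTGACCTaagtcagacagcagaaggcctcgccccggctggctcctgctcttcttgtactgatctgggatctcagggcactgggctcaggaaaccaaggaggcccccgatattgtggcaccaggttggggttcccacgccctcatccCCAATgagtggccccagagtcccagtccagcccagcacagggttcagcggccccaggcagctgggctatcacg
The window of Pnpla2 holds 2 GC boxes, that of Plin1 holds 2 C/EBP motifs, and that of Plin2 holds 1 AGGTCA and 1 CCAAT. Of 32851 mouse windows of the same length, 32.7% hold a GC box, 9.56% the C/EBP motif, 14% AGGTCA and 33.8% CCAAT. E-boxes are in 6.02% of windows, TATAAA in 12.4% and the DR1 element in 0.0335%. The 10 genes have 14 such windows in RefSeq, and none holds the DR1 element. These matches describe the letters of the windows only.

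The read totals were 14951333 to 21246286 in BAT, 13490948 to 21241811 in sWAT, 37700750 to 48812592 in isWAT and 29857189 to 43624353 in ieWAT; those of eWAT are unknown. Values are in CPM (counts per 1000000 reads of the library) for these 4 sets, and in FPKM (further divided by gene length) for eWAT. Fgf13 had 0.246 and 1.87 CPM in BAT knockout libraries, against 3.01 to 17.6 CPM in controls, and 43.0 to 84 CPM in sWAT knockout libraries, against 106 to 113 CPM. It had 31.3 and 35.3 CPM in isWAT knockout libraries, against 53.0 to 69.2 CPM in controls, and 22.6 to 33.4 CPM in ieWAT knockout libraries, against 39.7 to 51.4 CPM. Every knockout library of these 4 sets lay below its controls. In eWAT the libraries labelled knockout had 17.6 to 27.0 FPKM, against 12.9 to 27.6 FPKM in controls, so the groups overlapped and the eWAT direction rests on the labels. The tissue labels were checked with marker genes, each list summed up as its mean log2(value + 1). The adipocyte list (Adipoq, Lep and 9 others) stood at 8.38 to 9.94 in the CPM libraries. The brown fat list with Ucp1 averaged 7.59 and 7.74 in BAT knockout libraries and 7.34 to 7.66 in BAT controls, and at most 3.34 in a white CPM library. Skeletal muscle transcripts set some libraries apart: the muscle list was at 6.18 and 6.55 in sWAT knockout libraries 2 and 3, against 1.10 to 1.30 in the other 4 sWAT libraries. In BAT it was 0.46 and 8.65 in knockout libraries, against 0.86 to 6.37 in controls.

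Levels were first set side by side across depots. The depot tables were normalized separately, so this is a description without a test, and the order is that of the control means (SD, n = 3 each). The lipase genes were abundant in each depot. Pnpla2 averaged 1931 ± 133 CPM in isWAT, 1876 ± 143 CPM in BAT, 1529 ± 36.9 CPM in sWAT and 1212 ± 256 CPM in ieWAT. The ranges of isWAT and BAT overlapped, and the whole span was 1.59-fold. Lipe averaged 2379 ± 131 CPM in isWAT, 1787 ± 97.5 CPM in sWAT, 1272 ± 191 CPM in BAT and 1258 ± 230 CPM in ieWAT, and BAT overlapped ieWAT. Mgll followed the order isWAT (2456 ± 132 CPM), sWAT (1908 ± 117 CPM), ieWAT (1448 ± 193 CPM) and BAT (971 ± 105 CPM), with no overlap between neighbours. Brown fat was therefore among the highest depots for the first lipase of the sequence and the lowest for the last. The isWAT and sWAT sets are both subcutaneous white fat, but differ in knockout type and read totals. Their controls did not overlap for Lipe or Mgll, so differences between sets cannot be credited to the depot alone.

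The regulators of the first lipase ran in different orders. Abhd5, its activator, was highest in sWAT at 197 ± 5.54 CPM, followed by 149 ± 11.7 CPM in isWAT, 122 ± 13.9 CPM in ieWAT and 97.9 ± 9.80 CPM in BAT, and the last pair overlapped. G0s2, its inhibitor, was highest in BAT at 370.1 ± 87.5 CPM, overlapping isWAT at 317 ± 16.9 CPM. It had 288 ± 22 CPM in sWAT and 201 ± 38.9 CPM in ieWAT. The control ratio of Abhd5 reads to Pnpla2 reads, which can be compared between depots but not with other gene pairs, was 0.0525 ± 0.00746 in BAT, 0.129 ± 0.00124 in sWAT, 0.0776 ± 0.0107 in isWAT and 0.103 ± 0.0238 in ieWAT.

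Plin5, Plin4 and Cidec showed the widest spread across depots. Plin5 averaged 304 ± 2.96 CPM in BAT, 49.2 ± 11.5 CPM in isWAT, 35.8 ± 10.7 CPM in sWAT and 12.5 ± 1.91 CPM in ieWAT. BAT stood 24.3-fold above ieWAT, while isWAT and sWAT overlapped. Plin4 ran the other way, with 6711 ± 55.6 CPM in isWAT, 4264 ± 236 CPM in sWAT, 3503 ± 807 CPM in ieWAT and 623 ± 191 CPM in BAT. Its isWAT mean was 10.8-fold that of BAT, and sWAT and ieWAT overlapped. Cidec had 3974 ± 144 CPM in isWAT, 3591 ± 186 CPM in sWAT, 2899 ± 358 CPM in ieWAT and 952 ± 148 CPM in BAT, a span of 4.18-fold with no overlap between neighbours. Plin1 varied less, at 1985 ± 37.7 CPM in isWAT, 1763 ± 158 CPM in sWAT, 1205 ± 108 CPM in BAT and 1123 ± 222 CPM in ieWAT, and only BAT and ieWAT overlapped. Plin2 had the smallest span of the 10 genes, 1.34-fold. It averaged 1372 ± 180 CPM in ieWAT, 1167 ± 49.3 CPM in sWAT, 1064 ± 124 CPM in isWAT and 1021 ± 60.0 CPM in BAT, and each depot in that order overlapped the next.

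**Figure D1:**
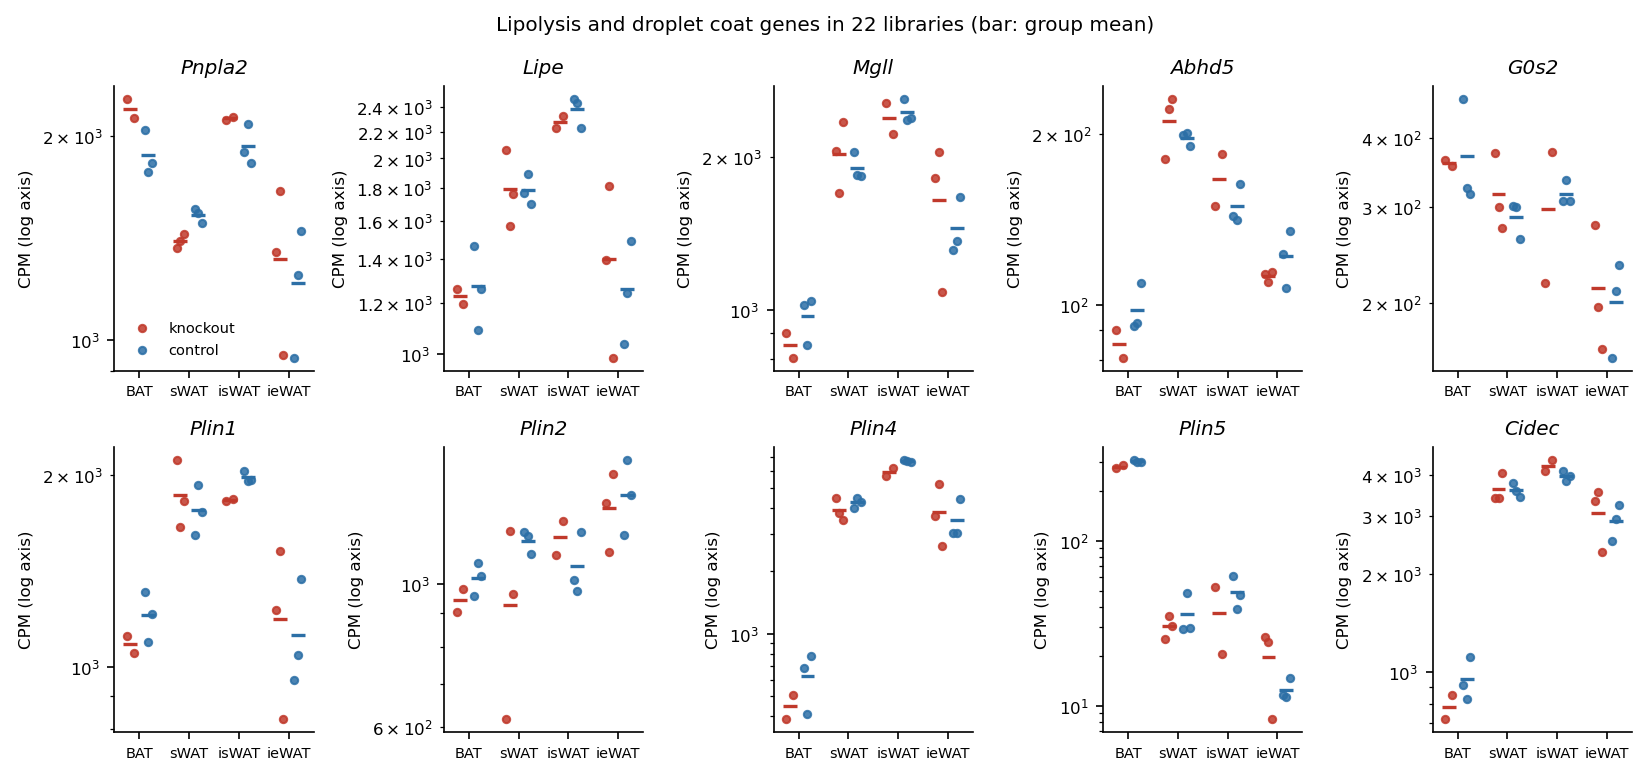
CPM (log axis) of each gene in the 22 libraries of BAT, sWAT, isWAT and ieWAT, with knockout libraries in red to the left of control libraries in blue and a bar at each group mean. Plin5 is highest in BAT, Plin4 and Cidec are lowest there, and most knockout points lie within or near the range of their controls.

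Genes can be compared with one another only per length, and for this the CPM were divided by the exon length in kb. This length merges all annotated exons of a gene and can exceed that of the transcript present. In isWAT controls Cidec then led with 2141 ± 77.5 CPM per kb, followed by Plin4 at 1162 ± 9.63, Pnpla2 at 639 ± 44.1, Mgll at 484 ± 26.0, Plin1 at 427 ± 8.11 and Lipe at 404 ± 22.3 CPM per kb. Abhd5 (25.0 ± 1.97 CPM per kb) and Plin5 (23.6 ± 5.50 CPM per kb) stood lowest. On this measure the activator Abhd5 lay below the inhibitor G0s2 (363 ± 19.4 CPM per kb), with lengths of 5.96 and 0.871 kb. The gap was smaller in the FPKM of eWAT controls, whose gene lengths are not known (52.7 ± 2.60 and 114 ± 19.4 FPKM). How far the length used sets the gap was not tested. In BAT controls the first lipase led in place of Cidec, with Pnpla2 at 621 ± 47.5, Cidec at 513 ± 79.6 and G0s2 at 425 ± 100 CPM per kb. Plin5 reached 146 ± 1.42 CPM per kb there, above Plin4 at 108 ± 33.1 CPM per kb. In eWAT controls Plin2 was the most abundant of the 10 genes, at 1291 ± 273 FPKM, followed by Cidec at 742 ± 139 FPKM. The 10 genes together took 0.824% and 0.828% of the reads in BAT knockout libraries and 0.783% to 0.926% in BAT controls. In isWAT they took 2.01% and 2.10% in knockout and 2.07% to 2.14% in control libraries.

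The make-up of the coat was followed as the share of each perilipin in the summed level per kb of Plin1 to Plin5, with Plin3, a perilipin found in most tissues, added for completeness. For eWAT the FPKM were used, whose gene lengths are not known. The eWAT shares are therefore compared only between its own groups, not with other depots. In BAT, Plin4 made up 10.4% ± 1.65 of the sum in knockout libraries (n = 2) and 12.9% ± 3.44 in controls (n = 3). Plin5 made up 18.3%, after rounding, in each BAT knockout library and 17.6% ± 0.874 in controls. In the white CPM depots Plin4 was the main perilipin, with group means of 47.4% to 60.0%, and Plin5 had 0.473% to 1.22%. In sWAT the share of Plin2 was 19.3% ± 6.42 in knockout libraries and 22.4% ± 1.56 in controls (n = 3 each), and in ieWAT 29.3% ± 9.36 and 31.1% ± 4.85. The groups overlapped in both. In isWAT they did not: Plin2 took 18.1% and 19.1% of the sum in knockout libraries, against 14.8%, 14.6% and 17.5% in controls, and Plin4 56.6% and 58.0%, against 60.1%, 61.1% and 58.7%. The small Plin3 share was higher without overlap in BAT (3.65% and 3.20%, against 2.86% to 3.15%) and in sWAT (1.37% to 1.45%, against 1.14% to 1.34%). The shares of a library are parts of one sum, so those of Plin2 and Plin4 in isWAT are not separate results. In CPM the isWAT groups overlapped for Plin2 (1109 and 1252, against 974 to 1205) but not for Plin4. The shares were not tested. In eWAT Plin2 took 53.0%, 41.3% and 54.3% of the sum in libraries labelled knockout, against 62.3%, 69.5% and 79.7% in controls. Plin1 took 28.9%, 31.9% and 27.8%, against 20.1%, 16.8% and 11.1%. Each eWAT library labelled knockout thus had a smaller Plin2 share and a larger Plin1 share than each control.

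**Figure D2:**
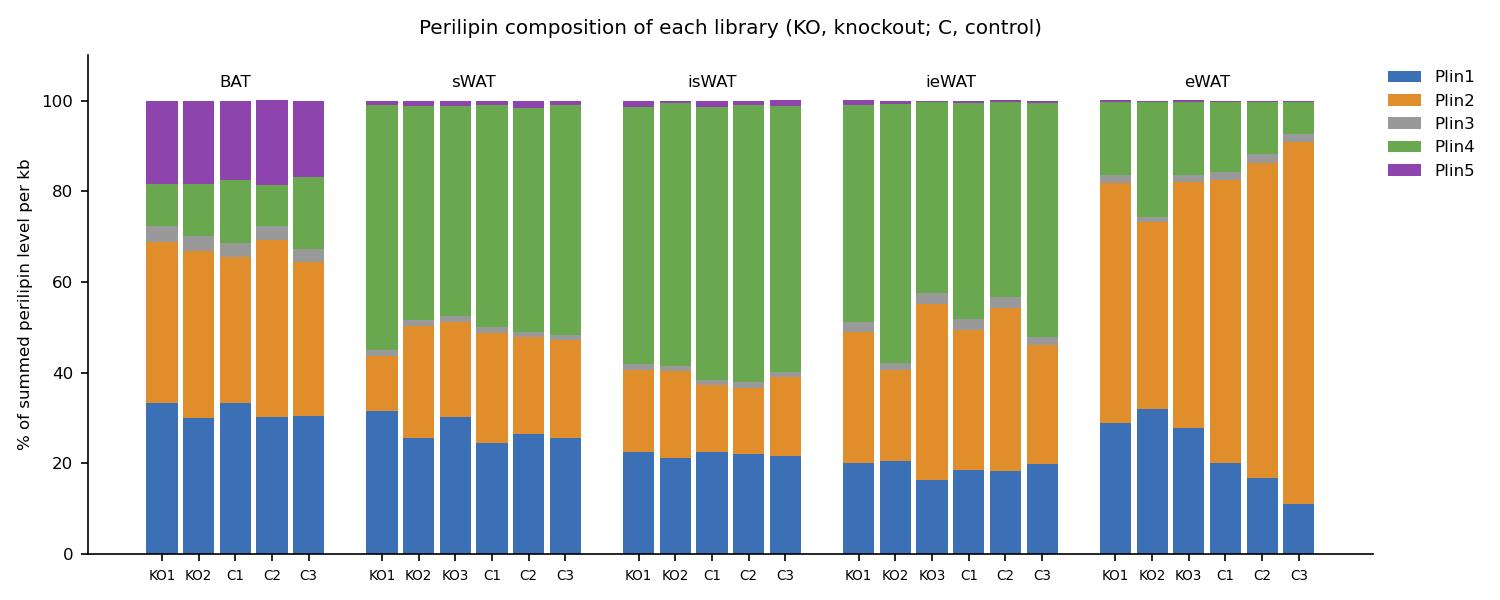
Stacked shares, in % of the summed level per kb, of the 5 perilipin genes in each of the 28 libraries, with knockout (KO) left of control (C) in each depot. Plin5 is prominent only in the BAT bars, and Plin4 is the main part in sWAT, isWAT and ieWAT. In eWAT the Plin2 part is 41.3% to 54.3% in KO bars and 62.3% to 79.7% in C bars. The eWAT bars are from FPKM with gene lengths that are not known, and cannot be compared with the other bars.

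Knockout and control were then compared within each depot with limma on log2(value + 1), with p adjusted by the Benjamini-Hochberg method over all genes tested in the depot and a threshold of 0.05. In the 4 CPM sets none of the 10 genes passed. Few other genes did: 1 of 13253 in BAT (0.00755%), 3 of 13816 in sWAT (0.0217%), 1 of 14258 in isWAT (0.00701%) and 0 of 14749 in ieWAT (0%, smallest adjusted p = 1). In ieWAT 386 genes (2.62% of those tested) had an unadjusted limma p under 0.05. There edgeR on the recovered reads called 0 genes and DESeq2 called 33, none of them among the 10. The changes, knockout minus control, are therefore given with their 95% intervals, which show what sizes these libraries leave possible. In eWAT 8 of the 10 genes passed, all higher in the libraries labelled knockout, where 14.9% of 13736 genes passed, 10.2% higher and 4.7% lower.

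**Figure D3:**
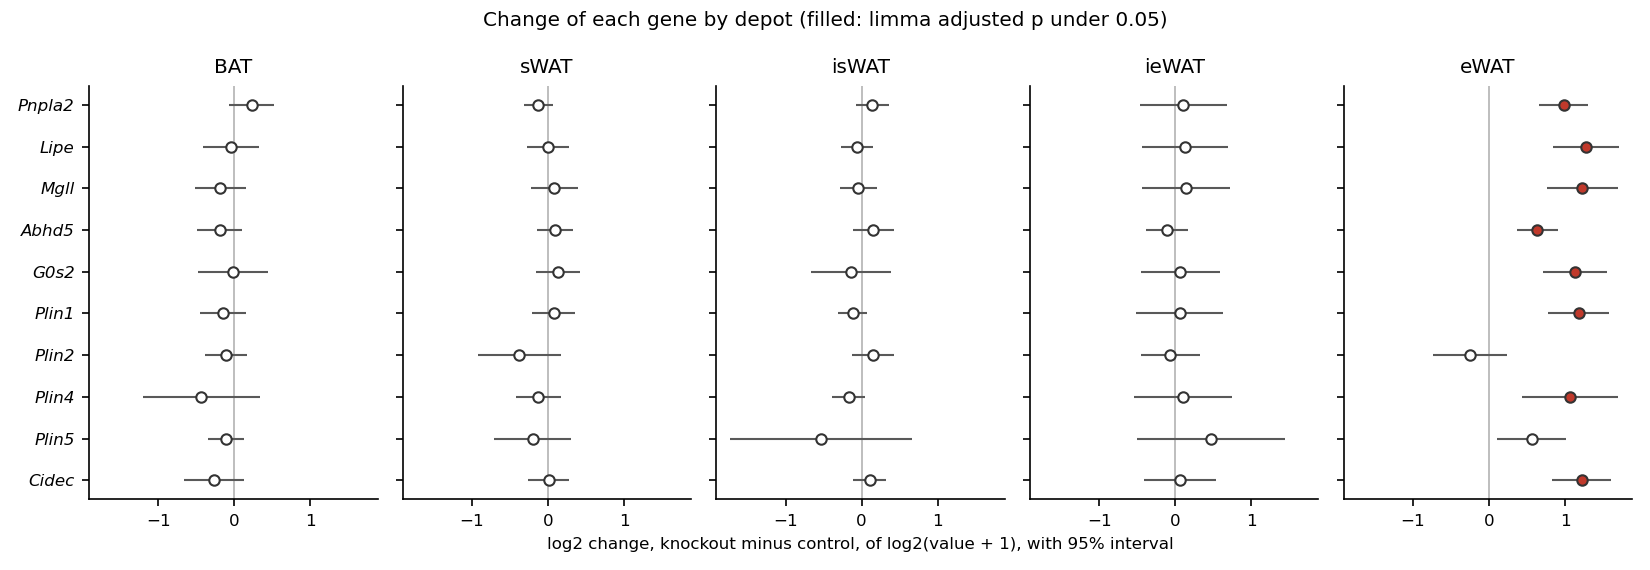
Log2 change (knockout minus control, log2(value + 1) scale) of each gene in each depot with its 95% interval from limma. Filled points passed an adjusted p of 0.05: in eWAT all genes but Plin2 and Plin5 are filled, at 0.64 to 1.28, and in the other depots every point is open.

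In BAT the first lipase and its partners had different signs. Pnpla2 had 2267 and 2122 CPM in knockout libraries, against 2039, 1768 and 1822 CPM in controls. Both knockout libraries lay above every control (log2 change 0.23, 95% interval -0.07 to 0.53, limma adjusted p = 0.328). Abhd5 had 90.1 and 80.5 CPM in knockout libraries, against 91.8, 92.7 and 109 CPM in controls, and Plin5 276 and 289.6 CPM, against 308, 303 and 302 CPM. For both, each knockout library lay below every control, at changes of -0.19 and -0.10 (limma adjusted p = 0.382 and 0.534). In all, 3 of the 10 genes had groups that did not overlap, where 44.5% of all genes did (6.37% higher, 38.1% lower), so the share among the 10 genes was not above that of all genes. Most genes were lower on this scale in BAT, with a median change over all genes of -0.18, against -0.13 for the 10 genes. After TMM scaling, which brings the median of all genes to 0.00302, Pnpla2 was at 0.43, Plin4 at -0.23 and Cidec at -0.07, and the changes of the other 7 genes, negative on the CPM scale, were positive at 0.01 to 0.19. The direction of these 7 in BAT thus depends on the scaling. The ratio of Abhd5 to Pnpla2, which no scaling of a library can change, was 0.0388 ± 0.00129 in knockout libraries (n = 2) and 0.0525 ± 0.00746 in controls (n = 3). That of Lipe to Pnpla2 was 0.559 ± 0.00552 and 0.676 ± 0.0545, and that of G0s2 to Pnpla2 0.164 ± 0.00452 and 0.196 ± 0.0309, each without overlap. All of these ratios share Pnpla2, so they are not separate results. Ratios without Pnpla2 overlapped for Mgll to Lipe (0.693 ± 0.0305 and 0.767 ± 0.0662) and G0s2 to Abhd5 (4.23 ± 0.257 and 3.84 ± 1.16). The share of all gene pairs with ratios apart was not computed for any depot. Beside this, the macrophage list stood at 3.16 and 3.29 in BAT knockout libraries, against 4.21 to 6.08 in controls, with all 10 of its genes lower without overlap. Other list means were lower without overlap as well: fibroblast 4.49 and 5.14, against 5.26 to 6.77, lipid-laden macrophage 5.09 and 5.19, against 6.03 to 7.70, endothelial 6.5 and 6.44, against 6.64 to 6.93, and lymphocyte 0.80 and 0.92, against 1.11 to 1.87. The part of these lists in the result was not tested. DESeq2 on the recovered reads called Pnpla2 higher in BAT (0.43, adjusted p = 0.0287) among 691 genes, and without control library 2 limma called Plin4 lower (-0.72, adjusted p = 0.0194) among 2201 genes. On data simulated for BAT, DESeq2 called 40 unchanged genes, beside 55 of 100 2-fold and 18 of 100 1.5-fold changes.

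In sWAT the 10 genes had changes between -0.38 and 0.13, with a median of 0.00 against -0.05 over all genes. Pnpla2 had 1368, 1398 and 1434 CPM in knockout libraries, against 1559, 1540.2 and 1488 CPM in controls. It was the only member whose groups did not overlap (-0.13, interval -0.32 to 0.07, limma adjusted p = 0.626), where 16.1% of all genes had such groups (3.8% higher, 12.3% lower). With TMM scaling the Pnpla2 groups overlapped too, and 0 of the 10 genes were apart. The ratio of Abhd5 to Pnpla2 was 0.150 ± 0.0160 in knockout libraries and 0.129 ± 0.00124 in controls (n = 3 each), without overlap. Those of Lipe to Pnpla2 and of G0s2 to Pnpla2 overlapped. Plin2 had 617, 1206 and 964 CPM in knockout libraries, against 1203, 1187 and 1111 CPM in controls (-0.38, interval -0.93 to 0.17, limma adjusted p = 0.598). Knockout library 1 was low and library 2 was within the range of the controls. The same library 1 had the lowest macrophage list mean of the set, 5.82 against 6.92 and 6.23 in the other knockout libraries and 6.69 to 7.11 in controls. It also had the highest adipocyte list mean, 9.94, against 9.50 and 9.77 in the other knockout libraries and 9.47 to 9.56 in controls. Over the whole set, the lipid-laden macrophage mean was 7.16 to 8.27 in knockout libraries, against 8.33 to 8.57 in controls, and the endothelial mean 6.91 to 7.20, against 7.31 to 7.32. The part of these lists in the sWAT values was not tested. Without knockout libraries 2 and 3, which carried the muscle transcripts, library 1 alone against the controls gave a Plin2 change of -0.92 (limma adjusted p = 0.00463, with the lone library assumed to vary like the controls), and 681 genes passed. Library 1 lay outside the 3 controls for all 10 genes and for 65.2% of all genes. The other lipase and coat genes overlapped: Lipe had 1572 to 2058 CPM in knockout libraries and 1699 to 1892 CPM in controls, Plin1 1656 to 2109 CPM and 1613 to 1927 CPM, and Cidec 3395 to 4059 CPM and 3418 to 3788 CPM.

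In isWAT Pnpla2 had 2108 and 2135 CPM in knockout libraries, against 1890.1, 2079.8 and 1823 CPM in controls. The groups did not overlap (0.14, interval -0.08 to 0.36, limma adjusted p = 0.541). Plin1 and Plin4 lay below their controls. Plin1 had 1823 and 1836 CPM in knockout libraries, against 2029, 1960.1 and 1968 CPM, and Plin4 5706 and 6236 CPM, against 6761, 6719.9 and 6651 CPM. Their changes were -0.12 (interval -0.31 to 0.07, limma adjusted p = 0.550) and -0.17 (interval -0.38 to 0.05, limma adjusted p = 0.458). Groups that did not overlap were found for 3 of the 10 genes and for 31.6% of all genes (12.2% higher, 19.4% lower). Of the marker lists, the endothelial mean was 7.68 and 7.70 in knockout libraries, against 7.80 to 7.99 in controls, and the lipid-laden macrophage mean 8.30 and 8.38, against 7.59 to 8.25. Their part in the result was not tested. Plin5 spread widely, with 52.7 and 20.5 CPM in knockout libraries and 38.9 to 61.6 CPM in controls. Its interval ran from -1.74 to 0.66, the widest of the 10 genes in this depot, and without knockout library 2 its change was 0.12 in place of -0.54. The median change of the 10 genes was -0.05, against -0.03 over all genes. As ratios within a library, Lipe to Pnpla2 was 1.07 ± 0.0251 in knockout libraries (n = 2) and 1.23 ± 0.0676 in controls (n = 3), and Cidec to Plin1 2.33 ± 0.113 and 2.00 ± 0.0387, both without overlap. Abhd5 to Pnpla2 overlapped, at 0.0784 ± 0.0110 in knockout libraries and 0.0776 ± 0.0107 in controls.

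In ieWAT the groups overlapped for all 10 genes, where 5.11% of all genes had groups that did not (3.43% higher, 1.68% lower). The members had a median change of 0.08, against 0.02 over all genes. Pnpla2 had 1346, 1659 and 949 CPM in knockout libraries, against 940.4, 1247 and 1448 CPM in controls (0.11, interval -0.46 to 0.68, limma adjusted p = 1). Lipe had 1397, 1817 and 986 CPM, against 1037, 1239.9 and 1495 CPM, and Plin4 3648, 5239 and 2635 CPM, against 3031, 3043 and 4434 CPM. Knockout library 2 was the highest and knockout library 3 the lowest of the set for Lipe, Mgll, Plin1, Plin4 and Cidec. Beside them, the adipocyte list mean was 8.86, 8.98 and 8.39 in knockout libraries 1 to 3, against 8.55, 8.66 and 8.77 in controls 1 to 3. The lymphocyte list mean was 3.87 to 4.50 in knockout libraries, against 2.46 to 3.79 in controls. Of its 12 genes, 6 were higher without overlap, and none passed the threshold. The part of these lists in the ieWAT values was not tested. Plin2 ran in another order, with 1333, 1122 and 1478 CPM in knockout libraries, against 1192, 1552 and 1371 CPM in controls. Its highest knockout library was library 3, the one with the lowest Lipe and Plin1 values. Plin5 had 26.3, 24.4 and 8.25 CPM in knockout libraries, against 11.6, 11.3 and 14.7 CPM in controls (0.47, interval -0.51 to 1.44).

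eWAT is the set in which these genes differed. The lipases of each step were higher in the libraries labelled knockout. Pnpla2 had 547, 559 and 678 FPKM in them, against 330.2, 312 and 259.9 FPKM in controls (log2 change 0.98, SE 0.14, limma adjusted p = 0.0122). Lipe had 424, 475 and 459 FPKM, against 232, 197 and 141 FPKM (1.28, SE 0.18, limma adjusted p = 0.0122), and Mgll 403, 373 and 498 FPKM, against 209, 202 and 136 FPKM (1.23, SE 0.20, limma adjusted p = 0.0143). For all 3 genes every library labelled knockout lay above every control, and control 3 was the lowest library. Both regulators were higher too. Abhd5 had 74.3, 78.2 and 96.4 FPKM, against 51.3, 55.7 and 51.0 FPKM (0.64, SE 0.11, limma adjusted p = 0.0187), and the inhibitor G0s2 203, 295 and 254 FPKM, against 134, 112 and 95.4 FPKM (1.13, SE 0.18, limma adjusted p = 0.0141). The ratio of G0s2 to Abhd5 was 3.05 ± 0.632 in libraries labelled knockout and 2.16 ± 0.394 in controls (n = 3 each). These groups did not overlap but nearly met, with a lowest ratio of 2.64 in libraries labelled knockout and a highest of 2.61 in controls. The ratio of Abhd5 to Pnpla2 was 0.139 ± 0.00318 and 0.177 ± 0.0206, also without overlap. The ratios of G0s2 to Pnpla2 overlapped.

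Among the coats, Plin1 had 596, 676 and 658 FPKM in libraries labelled knockout, against 330.4, 311 and 219 FPKM in controls (1.18, SE 0.17, limma adjusted p = 0.0122). Cidec had 1607, 1675 and 1846 FPKM, against 832, 814 and 582 FPKM (1.22, SE 0.16, limma adjusted p = 0.0122). Plin4 had 335, 539 and 383 FPKM, against 254, 213 and 138 FPKM (1.06, SE 0.27, limma adjusted p = 0.0437). The groups did not overlap for any of these 3. Plin5, a low transcript here, had 5.86, 4.40 and 8.08 FPKM, against 4.10, 3.47 and 3.57 FPKM, and did not pass (0.56, SE 0.19, limma adjusted p = 0.0905). Plin2 had 1096, 875 and 1284 FPKM in libraries labelled knockout, against 1022, 1284 and 1568 FPKM in controls. It was the only one of the 10 genes whose groups overlapped and the only one with a negative change (-0.25, interval -0.74 to 0.24, limma adjusted p = 0.430). The ratio of Plin2 to Plin1 was 1.70 ± 0.351 in libraries labelled knockout, against 4.79 ± 2.11 in controls (n = 3 each). The lowest control ratio, 3.09, was above the highest ratio of a library labelled knockout, 1.95.

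**Figure D4:**
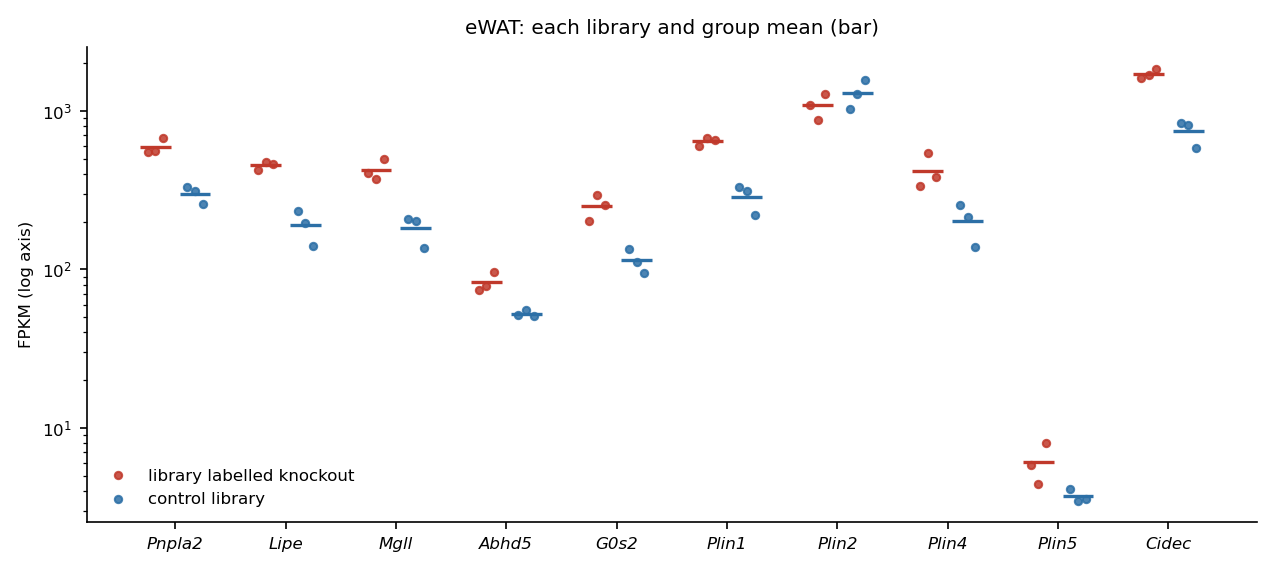
FPKM (log axis) of each gene in the 6 eWAT libraries, with libraries labelled knockout in red to the left of controls in blue and a bar at each group mean. The red points lie above all blue points for 9 genes, and the colours mix for Plin2.

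The median change of the 10 genes in eWAT was 1.10, against -0.02 over all genes, and 9 of 10 had groups that did not overlap, where 41.2% of all genes did (21.6% higher, 19.6% lower). Markers of cell types moved beside them. All 11 genes of the adipocyte list passed as higher, with a median change of 1.28 and list means of 8.11 to 8.35 in libraries labelled knockout, against 6.56 to 7.15 in controls. Of the macrophage list 6 of 10 genes passed as lower, with a median of -0.65 and list means of 7.39 to 7.64, against 8 to 8.20. Of the endothelial list 7 of 10 passed as higher (5.05 to 5.47, against 4.38 to 4.71). Of the lipid-laden macrophage list 2 of 10 passed as lower, and list means were 9.12 to 9.60, against 9.71 to 10.63. Without overlap, 7 of its genes were lower and 1 was higher. The low brown fat list mean was 1.97 to 2.14, against 1.62 to 1.73. The fibroblast and lymphocyte list means overlapped. The part of these lists in the result was not tested. In bulk RNA, more adipocytes and more RNA per adipocyte cannot be told apart. Set against the adipocyte list mean of the same library, 6 of the 10 genes had groups that overlapped: Lipe, Mgll, G0s2, Plin1, Plin4 and Cidec, at differences of -0.05 to -0.26 in log2. The other 4 were lower relative to that list without overlap, Pnpla2 by a difference of -0.35, Abhd5 of -0.69, Plin5 of -0.76 and Plin2 of -1.57. Of all genes, 94.9% had groups apart on this measure in eWAT, so 4 of 10 is a smaller share. The same measure set 4 of the 10 genes apart in sWAT (all lower; 31.6% of all genes), 4 in isWAT (3 lower, 1 higher; 29.3%), 2 in BAT (both lower; 30%) and 0 in ieWAT (2.52%). The ratio of Plin2 to the macrophage marker Cd68 was 1.71 ± 0.272 in libraries labelled knockout and 1.26 ± 0.0750 in controls (n = 3 each). Cd68 itself had a change of -0.68 (limma adjusted p = 0.0815), and a lower Cd68 raises this ratio. Ratios of Plin2 to the other macrophage markers were not computed.

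The eWAT calls rested on few libraries, and with a block for the replicate number 0 of the 10 genes passed. Without library 3 labelled knockout 0 of the 10 genes passed and 12 genes in all, with adjusted p of 0.0692 to 0.130 for the 8 genes, and without control 2 there were 5 of 10 and 561 genes in all. The sizes of change moved less: over the 6 fits that each left out 1 library, Pnpla2 ran from 0.88 to 1.05, Lipe from 1.08 to 1.43, Plin1 from 1.00 to 1.30 and Cidec from 1.05 to 1.31. A second deposited table of the same 6 samples, in TPM, gave 0 calls among the 10 genes and 1 in all. In it Abhd5 turned to -0.54, and the other 7 genes called from the FPKM table ran from 1.53 to 4.48. Why these tables of the same samples differ was not tested.

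The other genes that steer lipolysis were read from a list of 34, of which 31 were tested in eWAT. There 13 passed as higher and 3 as lower, with a median change of 0.45, where 10.2% of all genes passed as higher and 4.7% as lower. The regulatory subunit of protein kinase A that is typical of fat, Prkar2b, averaged 174 ± 19.2 FPKM in libraries labelled knockout and 84.8 ± 11.5 FPKM in controls (n = 3 each; 1.03, limma adjusted p = 0.0122). Caveolar genes were among them, with Cav1 at 1041 ± 82.3 and 466 ± 109 FPKM and Cavin1 at 461 ± 31.1 and 235 ± 35.7 FPKM. So were genes that restrain lipolysis: the natriuretic peptide clearance receptor Npr3 (225 ± 8.91 and 89.8 ± 22.5 FPKM), the phosphodiesterase Pde3b (42.7 ± 9.25 and 25.2 ± 3.32 FPKM), the adenosine receptor Adora1 (34.5 ± 3.13 and 14.5 ± 5.40 FPKM), the lactate receptor Hcar1 (16.8 ± 4.92 and 8.04 ± 1.62 FPKM) and the hydroxybutyrate receptor Hcar2 (11.4 ± 2.55 and 4.86 ± 1.63 FPKM). The adenylyl cyclases Adcy5 and Adcy6, the kinases Prkaca and Akt2, and Nnat were the remaining higher ones, at changes of 0.52 to 1.37. Among the lower ones were the catalytic subunit Prkacb (-0.49) and the cyclase Adcy3 (19.6 ± 1.95 and 28.2 ± 2.28 FPKM, -0.51). The higher genes thus included parts of the activating kinase pathway and receptors that restrain lipolysis.

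A list of 35 other droplet genes had 31 tested in eWAT, with 10 passing as higher, 3 as lower and a median change of 0.09, beside the same shares of all genes. Seipin, encoded by Bscl2 and needed to form droplets, averaged 212 ± 17 FPKM in libraries labelled knockout and 107 ± 14.9 FPKM in controls. The glycerol channel Aqp7 averaged 57.2 ± 9.26 and 25.8 ± 4.36 FPKM, the droplet-forming Fitm2 45.4 ± 3.41 and 20.7 ± 4.93 FPKM, and the fatty acid carrier Fabp4, which is also in the adipocyte list, 13520 ± 2060 and 6213 ± 645 FPKM. The lipases and esterases Pnpla3, Pnpla8, Ces1d and Abhd6, the acyl-CoA synthetase Acsl1 and the droplet hydrolase Ldah were the other higher ones, at 0.34 to 1.31. The lower ones were Lipa, the lysosomal acid lipase that is also in the lipid-laden macrophage list (291 ± 39.5 and 519 ± 124 FPKM, -0.81), the lysophospholipid acyltransferase Lpcat2 (-0.88) and Hsd17b11 (-0.40). In the 4 CPM depots none of either list passed. The genes with the smallest p there had changes of -0.49 for the natriuretic peptide receptor Npr1, -0.64 for Pik3r1 and 0.67 for Pde4d in BAT, with Pnpla3 at 0.43, Dagla at 0.55 and the lipase inhibitor Hilpda at -0.83. In sWAT they included Npr1 at -0.35, Adcy4 at -0.28 and Irs2 at -0.31, with Lpcat2 at -0.78 and Hsd17b11 at -0.25. In isWAT they were Adcy4 at -0.37, Hcar2 at 0.31 and Irs1 at 0.34, with Hilpda at -1.02, Fabp4 at 0.35 and Lipa at 0.35. In ieWAT they were Hcar1 at 0.29, Nnat at 0.55 and Pde4b at 0.48, with Lpcat2 at 0.39, Ubxn8 at 0.21 and Fabp5 at 0.18. Limma adjusted p ran from 0.237 in BAT to 1 in ieWAT for these.

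How the members varied among themselves was read from the 22 CPM libraries, with each table centred on its own mean in log2. Lipe and Plin1 were the most alike pair (Pearson r = 0.94), and Plin1 and Plin2 the least alike (r = -0.46), followed by Lipe and Plin2 (r = -0.44). Of 9559 genes with a mean of at least 10 CPM, the non-member most like each gene was Tmem45b for Lipe (r = 0.88), Fry for Plin1 (0.90), Nlrx1 for Mgll (0.93), Clmn for Plin4 (0.92, 22 libraries), Kcnh2 for Cidec (0.89) and Hist2h2aa2 for Pnpla2 (0.89). It was Nectin3 for Abhd5 (0.90), Rasd1 for G0s2 (0.81), Il15ra for Plin5 (0.78) and Ctsz, a lysosomal cathepsin, for Plin2 (0.90). These libraries share depot tables and depth, and the values are descriptions.

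The deviation of each library from its own group mean was then compared with that of the adipocyte and macrophage lists, in 20 relations over 22 libraries with a permutation test within groups and Benjamini-Hochberg adjustment. Lipe went with the adipocyte list (r = 0.84, permutation p = 0.00073, adjusted p = 0.0120; rho = 0.73, permutation p = 0.00371, adjusted p = 0.0371), with r = 0.76 without the 2 farthest libraries. Within depots its r was 0.70 in BAT, 0.96 in sWAT, 0.60 in isWAT and 0.95 in ieWAT. Plin1 (r = 0.79, permutation p = 0.0012, adjusted p = 0.0120; rho = 0.70, permutation p = 0.00864, adjusted p = 0.0576; r = 0.71 without the 2 farthest) had within-depot values of 0.62, 0.89, -0.28 and 0.96 in the same depots. For Plin4 (r = 0.85, permutation p = 0.00209, adjusted p = 0.0139; rho = 0.79, permutation p = 0.0019, adjusted p = 0.0371; r = 0.74 without the 2 farthest) they were 0.95, 0.59, -0.03 and 0.90. The relations of Plin1 and Plin4 were thus not seen within isWAT. The adipocyte list deviations spanned only -0.062 to 0.075 there, against -0.356 to 0.236 in ieWAT. With so little spread and few libraries, the isWAT values cannot show whether the relations fail in that depot. Plin2 had the opposite sign, r = -0.55 with the adipocyte list (permutation p = 0.0476, adjusted p = 0.136; rho = -0.49, permutation p = 0.0631, adjusted p = 0.193; r = -0.54 without the 2 farthest), and its sign was negative in all 4 depots, from -0.34 to -0.92. With the macrophage list it had r = 0.47 (permutation p = 0.0674, adjusted p = 0.169; rho = 0.47, permutation p = 0.0805, adjusted p = 0.201; r = 0.76 without the 2 farthest), with -0.56 in BAT and 0.91, 0.92 and 0.78 in sWAT, isWAT and ieWAT. Neither Plin2 relation passed the adjustment.

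**Figure D5:**
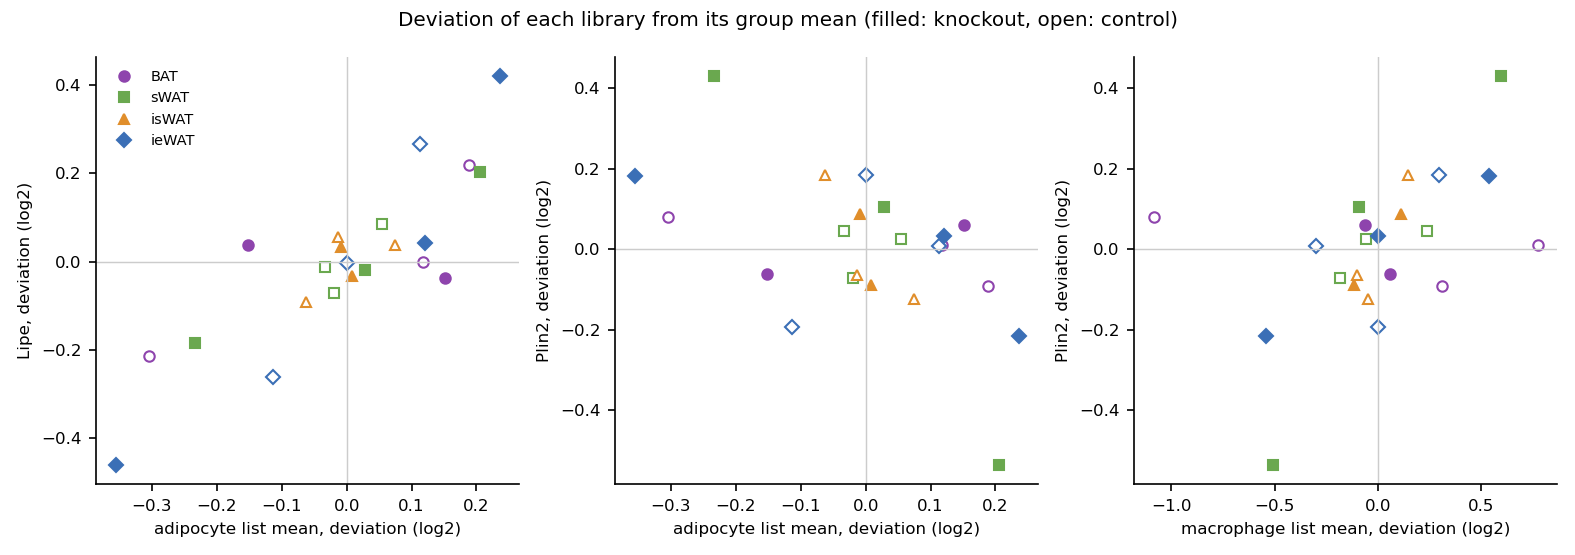
Deviation of each of 22 libraries from its group mean (log2 units), for Lipe against the adipocyte list, Plin2 against the adipocyte list and Plin2 against the macrophage list; colours and symbols mark depots, filled symbols knockout and open symbols control libraries. Lipe rises with the adipocyte list (r = 0.84), while the Plin2 points slope downward with it (r = -0.55).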

How the data were processed

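RNA was extracted with a Qiagen RNeasy kit and sequenced on a HiSeq2000, per the labels' protocols. The submitters' processing notes name Salmon, FastQC, MultiQC and DESeq2 1.38.3 without a role; no aligner, build or annotation is named in the sources used here. The series has 7 tables. Those of BAT, sWAT, isWAT and ieWAT hold CPM as deposited by the authors, although they are named FPKM: each column sums to 1000000, and 100% of values were whole multiples of 1 read (tolerance 0.01 reads), so reads were recovered. The deposited eWAT table holds FPKM. Another deposited table, whose name says raw counts, contains TPM values of the same eWAT samples and served only as an alternative chosen after seeing the data; the remaining table was not used.

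Symbols came from GENCODE M21 (92% of identifiers matched, 96% in ieWAT). Changes are knockout minus control from limma 3.58.1 (two-sided; lmFit, then eBayes with a mean trend and robust variances) on log2(value + 1), for genes that reached 1 in a number of libraries equal to the size of the smaller group. A log2(value + 1) change understates the change of low genes. Marker, pathway and member lists were chosen with earlier results of these data known. Named genes are the 10 members, Fgf13, the gene most like each member, list genes past the threshold or, with none, the 3 with the smallest p per list and depot, and markers beside a result. Some list genes that this rule names are not reported here. Alternatives were pseudocounts of 0.1 and 0.5, no filter, TMM scaling, a block for the replicate number, omission of each library in turn, edgeR 4.0.16 (quasi-likelihood) and DESeq2 1.42.0 on recovered reads, and sWAT without knockout libraries 2 and 3. The fit was also run on data simulated for each depot, with 100 genes changed 2-fold and 100 changed 1.5-fold. Of these, limma called 24 and 1 in BAT, 84 and 42 in sWAT, 90 and 51 in isWAT, and 54 and 10 in ieWAT. For eWAT the calls were 69 and 32. DESeq2 called 55 and 18 in BAT, beside 40 unchanged genes.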

Additional observations from a re-analysis of the deposited data

Results flagged for a closer look

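For 5 genes, every knockout library lay on one side of every control in one depot and on the other side in another depot. The same held for 16.5% of the 12149 genes tested in all 5 depots. The difference between depots was not tested for any of them. Pnpla2 had log2 changes, knockout minus control, of 0.23 in BAT, 0.14 in isWAT and 0.98 in eWAT, and of -0.13 in sWAT. Abhd5 was at -0.19 in BAT and 0.64 in eWAT, and Plin5 at -0.10 in BAT and 0.56 in eWAT. Plin1 was at -0.12 in isWAT and 1.18 in eWAT, and Plin4 at -0.17 in isWAT and 1.06 in eWAT. Only the eWAT values of Pnpla2, Abhd5, Plin1 and Plin4 passed limma's test, and the BAT values of Abhd5 and Plin5 changed sign with TMM scaling. With that scaling the Pnpla2 groups overlapped in sWAT, the only depot in which its change was negative.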

How the results depend on the processing

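The samples of a depot share replicate numbers. Correlations of deviations between same-numbered libraries ran from -0.56 to 0.39. With so few libraries per group these values cannot decide whether the numbers pair the libraries. With the replicate block, genes called were 0 in BAT, 1 in sWAT, 7 in isWAT, 1 in ieWAT and 0 in eWAT, and 0 members were called in any depot (eWAT adjusted p of 0.0627 to 0.0822 for the 8 genes). Depth was not known for eWAT. A pseudocount of 0.1 gave 0 genes called in BAT and 5 in sWAT. Without the filter there were 7 in BAT, 5 in sWAT, 3 in isWAT and 544 in eWAT. edgeR called 0 genes in BAT, 1 in sWAT and 0 in isWAT, and DESeq2 691 in BAT (1 member), 85 in sWAT, 251 in isWAT and 33 in ieWAT. TMM scaling left 1 member without overlap in BAT and 0 in sWAT. It turned 7 BAT changes, as did edgeR and DESeq2: with TMM, edgeR and DESeq2 Lipe was at 0.164, 0.159 and 0.155, Mgll at 0.019, 0.025 and 0.020, Abhd5 at 0.009, 0.016 and 0.012, G0s2 at 0.190, 0.164 and 0.159, Plin1 at 0.058, 0.059 and 0.055, Plin2 at 0.094, 0.092 and 0.088, and Plin5 at 0.10, 0.10 and 0.096. Without both muscle-high sWAT libraries 681 genes and 1 member passed, 10 members lay outside the controls (as did 65.2% of all genes, with 1 knockout library left), and Abhd5 (-0.123), Plin4 (0.075) and Cidec (-0.080) changed sign. The second eWAT table gave 1 gene and 0 members called, 4 members without overlap, and Abhd5 at -0.54. With TMM the macrophage list's r was -0.09 for Plin4 and -0.15 for Cidec, against 0.04 and 0.01. Leaving out 1 library at a time, genes called ran from 0 to 2201 in BAT, 1 to 120 in sWAT, 0 to 12 in isWAT, 0 to 1 in ieWAT and 12 to 1819 in eWAT. Members called ran from 0 to 1 in BAT and 0 to 8 in eWAT, and members without overlap from 3 to 8 in BAT, 1 to 3 in sWAT, 3 to 9 in isWAT and 0 to 3 in ieWAT. In BAT and isWAT, leaving out a knockout library left only 1 in that group. The share of all genes without overlap was not computed for these fits, for TMM scaling or for the second eWAT table. Their counts of members without overlap therefore cannot be set against all genes. The fits that left out 1 library gave changes of both signs for Lipe (-0.150 to 0.067) and G0s2 (-0.12 to 0.17) in BAT. In sWAT they did for Lipe (-0.101 to 0.093), Mgll (-0.029 to 0.204), G0s2 (-0.005 to 0.222), Plin1 (-0.017 to 0.157), Plin5 (-0.322 to 0.024) and Cidec (-0.079 to 0.050). In isWAT they did for Mgll (-0.144 to 0.058), G0s2 (-0.54 to 0.25) and Plin5 (-1.20 to 0.12). In ieWAT they did for Pnpla2 (-0.078 to 0.324), Lipe (-0.083 to 0.357), Mgll (-0.038 to 0.422), G0s2 (-0.14 to 0.24), Plin1 (-0.14 to 0.30), Plin2 (-0.163 to 0.041), Plin4 (-0.15 to 0.34) and Cidec (-0.053 to 0.252). None of these sign changes on leaving out a library was of a called value, and no eWAT change in the FPKM table changed sign in any fit run. The causes were not tested, other than that leaving out libraries leaves fewer samples and the unfiltered fit tests more genes.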
